A study of Mus musculus with 12 samples.

Results

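A group of 7 genes around the FOXO transcription factors was followed in cultures of mouse adipose-derived mesenchymal stem cells, the stromal progenitors found in fat. They are 7 of the 56748 gene IDs in the count table, and all 7 passed the filter on low counts, as did 14338 IDs in all. They are 2 transcription factors, Foxo1 (ENSMUSG00000044167) and Foxo3 (ENSMUSG00000048756), and 5 genes known as FOXO targets, Txnip (ENSMUSG00000038393), Pik3ip1 (ENSMUSG00000034614), Irs2 (ENSMUSG00000038894), Sesn3 (ENSMUSG00000032009) and Ccng2 (ENSMUSG00000029385). Members were taken by gene ID, and their symbols come from the member list, because no table used here pairs Ensembl IDs with symbols. For the same reason the labelled cell type could not be checked against its markers, and no other gene of the pathway is named. RNA was sequenced from spheroids (3D) and from attached cells (2D), each at 24 h and at 0 h, which gives 4 groups of 3 libraries. The medium of every group was DMEM with fetal bovine serum and antibiotics, and the labels name no other agent. The labels give neither the strain, sex or age of the donor mice nor how long spheroids had formed before 0 h. Replicates are not described as separate cultures, so the spread behind each p-value may be technical only.

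FOXO proteins are forkhead transcription factors that read out the supply of growth factors. When insulin or IGF1 activates PI3 kinase and AKT, AKT phosphorylates FOXO proteins and they are held in the cytoplasm. When that signal is weak they enter the nucleus and switch on genes for cell cycle arrest, stress defence, autophagy and renewed insulin sensitivity, a programme known from quiescent stem cells. FOXO activity is set mainly by protein phosphorylation and location, which RNA levels do not show.

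The promoters of the 5 target genes are shown because they are where a FOXO protein could bind near the start of the gene. They run from 250 bases before to 50 bases after the annotated start, 5′ to 3′ along the gene, from RefSeq on build GRCm38.p6. Capitals mark matches on either strand to GTAAACA (the forkhead core), CAAAACA (an insulin response core) or CACGTG (the E-box).
Txnip, chr3:96557707-96558006, plus strand: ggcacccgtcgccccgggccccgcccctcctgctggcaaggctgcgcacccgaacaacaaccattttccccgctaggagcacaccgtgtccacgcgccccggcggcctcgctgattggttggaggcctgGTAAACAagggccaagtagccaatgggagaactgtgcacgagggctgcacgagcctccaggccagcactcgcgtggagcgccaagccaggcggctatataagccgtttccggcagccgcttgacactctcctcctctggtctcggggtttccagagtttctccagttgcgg
Ccng2, chr5:93267323-93267622, plus strand: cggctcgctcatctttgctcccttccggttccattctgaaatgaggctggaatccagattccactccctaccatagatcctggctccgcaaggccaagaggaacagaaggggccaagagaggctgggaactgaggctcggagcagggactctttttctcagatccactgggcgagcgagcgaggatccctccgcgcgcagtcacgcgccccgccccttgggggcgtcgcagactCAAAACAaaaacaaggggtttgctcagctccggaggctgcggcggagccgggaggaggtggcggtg
Irs2, chr8:11008880-11009179, minus strand: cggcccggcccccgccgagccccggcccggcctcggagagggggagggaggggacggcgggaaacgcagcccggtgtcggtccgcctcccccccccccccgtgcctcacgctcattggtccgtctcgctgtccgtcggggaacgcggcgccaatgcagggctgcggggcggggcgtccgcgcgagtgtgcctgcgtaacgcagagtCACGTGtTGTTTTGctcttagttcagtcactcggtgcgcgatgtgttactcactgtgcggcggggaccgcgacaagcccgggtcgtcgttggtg
Pik3ip1, chr11:3330481-3330780, plus strand: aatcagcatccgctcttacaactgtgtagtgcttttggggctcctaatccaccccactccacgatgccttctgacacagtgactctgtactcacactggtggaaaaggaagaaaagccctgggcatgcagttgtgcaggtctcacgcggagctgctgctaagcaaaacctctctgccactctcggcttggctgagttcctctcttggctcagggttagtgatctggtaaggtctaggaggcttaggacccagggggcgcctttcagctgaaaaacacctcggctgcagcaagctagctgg
Sesn3, chr9:14276051-14276350, plus strand: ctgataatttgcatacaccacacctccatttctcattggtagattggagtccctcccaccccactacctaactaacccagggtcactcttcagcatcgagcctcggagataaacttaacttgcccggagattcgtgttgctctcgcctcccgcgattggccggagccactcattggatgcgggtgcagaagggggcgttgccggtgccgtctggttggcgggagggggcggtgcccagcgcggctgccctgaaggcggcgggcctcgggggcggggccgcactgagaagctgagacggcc

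Txnip held the forkhead core, beginning 121 bases before the start, and Txnip was the sole member promoter with it, against 3.65% of 32851 promoters. Ccng2 held the insulin response core 16 bases before the start, and Irs2 held its reverse complement, TGTTTTG, 37 bases before the start. That core was in 6.28% of promoters. It was added to the search after the sequences were seen, so this share is a description only. In Irs2 an E-box beginning 44 bases before the start lay beside TGTTTTG, and E-boxes were in 7.15% of promoters. The E-box search was planned for Txnip alone, which held none. It was widened to all members after the sequences were seen. Pik3ip1 and Sesn3, like the promoters of Foxo1 and Foxo3, had none of these letters within the 300 bases. A match describes the letters and is not evidence of binding.

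Library totals ran from 10182590 to 17109609 expected counts. Member counts ran from 45 expected counts (Pik3ip1 in 2D at 0 h, replicate 1) to 5362 (Txnip in 3D at 0 h, replicate 2). Levels below are in CPM, the count of a gene relative to its TMM-scaled library total, and a gene was called at an edgeR quasi-likelihood adjusted p under 0.05 over all genes tested.

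The FOXO factors and most targets were higher in spheroids. At 0 h, 6 of the 7 genes were higher in 3D than in 2D and none was called lower, where 23.1% of all genes tested were called higher. The median log2 fold change of the 7 was 2.11, against 0.02 over all genes. At 24 h, 5 of 7 were higher in 3D, where 19.6% of all genes were called higher, and the median was 0.92 against -0.00 over all genes. The members were chosen with earlier results of these data known, so the values over all genes are set beside them as a description only. In these bulk samples, a change in the RNA per cell and a change in the share of cells that make it cannot be told apart.

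Over 24 h, only Pik3ip1 and Ccng2 were called in opposite directions in 3D and 2D. In 3D, 4 of the 7 genes fell (Foxo3, Txnip, Pik3ip1 and Ccng2) and none rose, where 24.7% of all genes fell. In 2D, Pik3ip1, Sesn3 and Ccng2 rose, 3 of 7, where 17.4% of all genes rose, and Irs2 fell, where 17.0% of all genes fell. The 3D against 2D change was lower at 24 h than at 0 h for 5 of 7 genes, where 20.5% of all genes were called lower, and higher for Irs2, where 18.7% were called higher. These comparisons share libraries: the 3D libraries at 0 h, for one, enter the culture comparison at 0 h, the time comparison in 3D and the difference of changes.

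**Figure D1:**
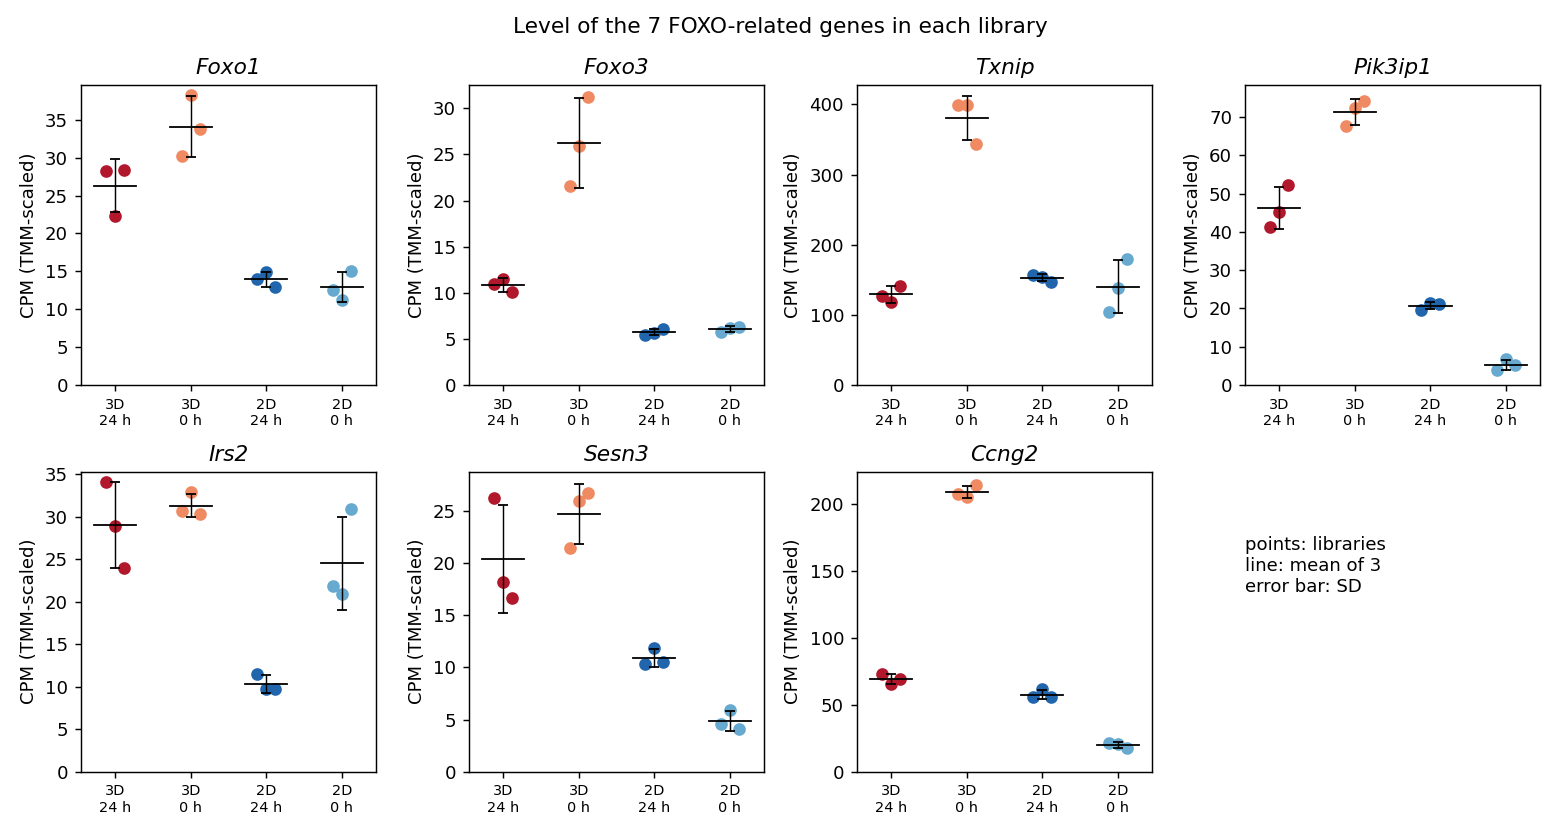
Level of each gene in CPM (vertical axis, linear, from 0) in the 12 libraries, with the mean of 3 libraries as a line and the SD as an error bar. The 3D libraries at 0 h have the highest mean in every panel, 209 CPM for Ccng2 and 381 CPM for Txnip, while Irs2 in 2D at 24 h stands alone as a low group at 10.3 CPM.

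Foxo1 encodes a factor best known for control of glucose production, adipogenesis and vascular growth. It had 28.3, 22.3 and 28.3 CPM in 24 h spheroids and 30.2, 38.2 and 33.8 CPM in 0 h spheroids. The 2D libraries had 14.0, 14.9 and 12.9 CPM at 24 h and 12.6, 11.2 and 15.0 CPM at 0 h. Every 3D library was above every 2D library, and the 2 times overlapped in 2D. Foxo1 was 1.89-fold higher in 3D at 24 h (log2 0.92 ± 0.16 SE, adjusted p = 0.00016) and 2.63-fold higher in 3D at 0 h (log2 1.40 ± 0.16 SE, adjusted p = 1.9e-06). Time was not called in 3D (log2 -0.37, 95% interval -0.70 to -0.05, adjusted p = 0.053) or in 2D (log2 0.10, interval -0.24 to 0.45, adjusted p = 0.66). The 3D call over time appeared without 2D 0 h replicate 2 (log2 -0.37, adjusted p = 0.039) and with only the 2 groups compared in the fit (log2 -0.35, adjusted p = 0.048). The difference between the culture changes at 24 h and 0 h was -0.48 (interval -0.95 to -0.01, adjusted p = 0.10), and was called without 2D 0 h replicate 3 (-0.59, adjusted p = 0.045). The expected counts of Foxo1 were whole in 0 of 12 libraries. RSEM gives fractions where reads match more than 1 gene, so the level of Foxo1 is uncertain.

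Foxo3 encodes the family member most tied to stem cell quiescence and longevity. It had 10.9, 11.5 and 10.1 CPM in 24 h spheroids, 21.5, 25.9 and 31.2 CPM in 0 h spheroids, 5.44, 5.67 and 6.06 CPM in 24 h attached cells and 5.76, 6.20 and 6.28 CPM in 0 h attached cells. The spheroids at 0 h lay above all other libraries, those at 24 h came next without overlap, and the attached cells at both times overlapped at the bottom. Foxo3 was 1.89-fold higher in 3D at 24 h (log2 0.92 ± 0.18 SE, adjusted p = 0.00056) and 4.31-fold higher in 3D at 0 h (log2 2.11 ± 0.18 SE, adjusted p = 5.8e-08). It fell by 1.27 ± 0.17 (log2, SE) over 24 h in 3D (adjusted p = 1.0e-05), with no call in 2D (log2 -0.09, interval -0.48 to 0.31, adjusted p = 0.75). The culture change at 24 h minus that at 0 h was -1.19 ± 0.25 (SE, adjusted p = 0.0012). With limma on log2(TPM + 1) values, the call in 3D against 2D at 24 h was lost (0.31, adjusted p = 0.30). With a pseudocount of 0.1 in place of 1, the change over time in 3D was -1.96 and the difference of changes -1.93. TPM divides by a length, and the length given to Foxo3 differed between groups, as described further on.

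Txnip encodes an arrestin-like protein that binds thioredoxin and limits glucose uptake, and its gene is known to respond to glucose through MondoA. Txnip had 127, 119 and 142 CPM in 24 h spheroids, against 157, 154 and 147 CPM in 24 h attached cells. In 3D at 0 h it had 399, 399 and 344 CPM, against 103, 138 and 180 CPM in 0 h attached cells. The 0 h spheroids were above all other libraries, the 24 h spheroids were below the 24 h attached cells, and the 0 h attached cells overlapped both groups at 24 h. Txnip was 2.71-fold higher in 3D at 0 h (log2 1.44 ± 0.15 SE, adjusted p = 7.3e-07), and it was not called at 24 h (log2 -0.25, interval -0.56 to 0.07, adjusted p = 0.20). With limma on log2(TPM + 1) values it was called lower in 3D at 24 h (-0.30, adjusted p = 0.034). It fell by 1.56 ± 0.15 (log2, SE) over 24 h in 3D (adjusted p = 2.7e-07). In 2D the change over time was 0.12 (interval -0.19 to 0.44, adjusted p = 0.55) and turned to -0.071 without 2D 0 h replicate 1, the lowest of that group. The difference of culture changes was -1.68 ± 0.21 (SE, adjusted p = 7.8e-06). Its expected counts were whole in 7 of 12 libraries, so that a few of its reads too may belong elsewhere.

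Pik3ip1 encodes a membrane protein that binds PI3 kinase and lowers its activity, upstream of AKT and FOXO. It had 41.3, 45.3 and 52.2 CPM in 24 h spheroids, against 19.6, 21.5 and 21.2 CPM in 24 h attached cells. In 3D at 0 h it had 67.6, 72.4 and 74.2 CPM, against 3.87, 6.71 and 5.10 CPM in 0 h attached cells. The 4 groups did not overlap, and the order from high to low was 0 h spheroids, 24 h spheroids, 24 h attached cells, 0 h attached cells. Pik3ip1 was 2.22-fold higher in 3D at 24 h (log2 1.15 ± 0.15 SE, adjusted p = 8.3e-06) and 13.6-fold higher in 3D at 0 h (log2 3.76 ± 0.17 SE, adjusted p = 3.0e-11). The change at 0 h was at rank 149 from the highest among 14338 genes. Pik3ip1 fell by 0.63 ± 0.15 (log2, SE) over 24 h in 3D (adjusted p = 0.0018) and rose by 1.98 ± 0.17 in 2D (adjusted p = 3.6e-07). The difference of culture changes was -2.61 ± 0.22 (SE, adjusted p = 1.0e-07).

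Irs2 encodes an adaptor that couples the insulin and IGF1 receptors to PI3 kinase, and its FOXO-driven induction is known from the fasted liver. It had 34.0, 29.0 and 24.0 CPM in 24 h spheroids, against 11.5, 9.72 and 9.72 CPM in 24 h attached cells. In 3D at 0 h it had 30.7, 32.9 and 30.3 CPM, against 21.8, 20.9 and 30.8 CPM in 0 h attached cells. The attached cells at 24 h were below all other libraries, while each of the other 3 groups overlapped its neighbour in the order of means. Irs2 was 2.82-fold higher in 3D at 24 h (log2 1.49 ± 0.18 SE, adjusted p = 2.7e-06). At 0 h it was not called (log2 0.35, interval -0.00 to 0.70, adjusted p = 0.098). It was called at 0 h without 2D 0 h replicate 3, the highest of that group (0.59, adjusted p = 0.0073), and also with upper-quartile scaling (0.47, adjusted p = 0.032) and with library totals (0.45, adjusted p = 0.037). The median over all genes at 0 h was itself 0.14 with upper-quartile scaling and 0.12 with library totals. Over 24 h Irs2 fell by 1.25 ± 0.18 (log2, SE) in 2D (adjusted p = 6.7e-05). In 3D its change over time was -0.11 (interval -0.46 to 0.24, adjusted p = 0.62), and 0.031 without 3D 24 h replicate 3. The difference of culture changes was 1.14 ± 0.24 (SE, adjusted p = 0.0012), a call lost with limma on log2(TPM + 1) values (0.77, adjusted p = 0.064).

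Sesn3 encodes a sestrin, one of the stress-induced proteins that restrain mTORC1, the growth-promoting kinase complex. It had 26.3, 18.2 and 16.6 CPM in 24 h spheroids, against 10.3, 11.9 and 10.5 CPM in 24 h attached cells. In 3D at 0 h it had 21.4, 26.0 and 26.7 CPM, against 4.56, 5.91 and 4.07 CPM in 0 h attached cells. The spheroids were above the attached cells at both times, and the spheroid groups overlapped. Sesn3 was 1.87-fold higher in 3D at 24 h (log2 0.91 ± 0.20 SE, adjusted p = 0.0012) and 5.09-fold higher in 3D at 0 h (log2 2.35 ± 0.21 SE, adjusted p = 9.8e-08). It rose by 1.17 ± 0.21 (log2, SE) over 24 h in 2D (adjusted p = 0.00059), a call lost with limma on log2(TPM + 1) values (0.66, adjusted p = 0.082). In 3D its change over time was -0.28 (interval -0.67 to 0.12, adjusted p = 0.24). That change was called with limma on log2(TPM + 1) values (-0.87, adjusted p = 0.018) and without 3D 24 h replicate 1, the highest of its group (-0.48, adjusted p = 0.048). The difference of culture changes was -1.44 ± 0.28 (SE, adjusted p = 0.00063).

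Ccng2 encodes cyclin G2, an unusual cyclin that is abundant in cells that have left the cell cycle and slows division when overproduced. It had 73.0, 65.2 and 69.3 CPM in 24 h spheroids, against 55.5, 61.4 and 55.5 CPM in 24 h attached cells. In 3D at 0 h it had 207, 205 and 214 CPM, against 21.7, 20.8 and 17.6 CPM in 0 h attached cells. The 4 groups did not overlap, and the groups at 24 h lay close together between the extremes at 0 h. Ccng2 was 10.4-fold higher in 3D at 0 h (log2 3.38 ± 0.12 SE, adjusted p = 1.4e-12), at rank 185 from the highest among 14338 genes. At 24 h the difference of 0.27 (interval 0.04 to 0.49) missed the threshold (adjusted p = 0.051). It was called under 12 of 21 alternatives, among them DESeq2 (0.29, adjusted p = 0.014) and library totals (0.39, adjusted p = 0.0058). With library totals the median over all genes at 24 h was itself 0.12. Leaving out 1 library made the call for each replicate of 2D at 0 h and for replicates 1 and 2 both of 2D at 24 h and of 3D at 0 h, with values from 0.27 to 0.36 and edgeR adjusted p from 0.014 to 0.050. Over 24 h Ccng2 fell by 1.59 ± 0.11 (log2, SE) in 3D (adjusted p = 2.8e-09) and rose by 1.52 ± 0.11 in 2D (adjusted p = 6.4e-08). The difference of culture changes was -3.12 ± 0.15 (SE, adjusted p = 1.7e-10), at rank 371 from the lowest.

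**Figure D2:**
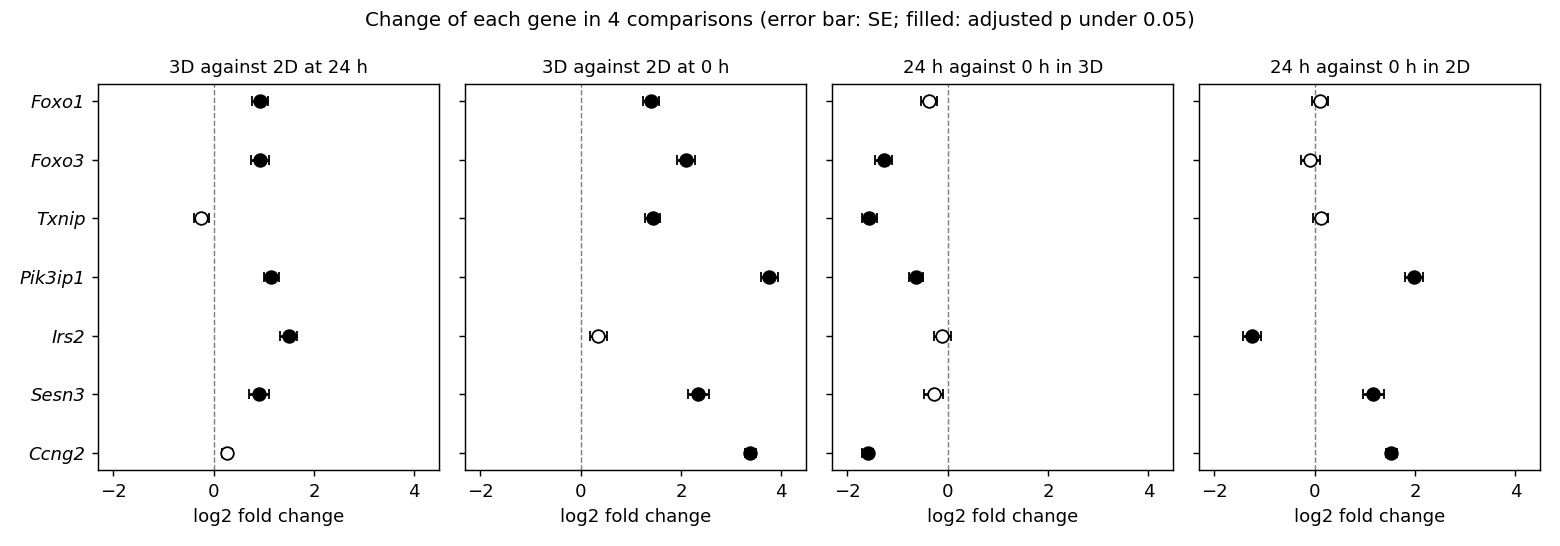
Log2 fold change (horizontal axis) of each gene with its SE in 4 comparisons, filled where the edgeR adjusted p was under 0.05. Every filled point lies right of 0 for 3D against 2D and left of 0 for 24 h against 0 h in 3D, with Irs2 (-1.25) the sole filled point left of 0 in 2D over time.

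Levels can be set against each other only per length, in TPM. In 3D at 0 h the order of mean TPM was Txnip (285 ± 19.8), Ccng2 (128 ± 3.31), Pik3ip1 (59.2 ± 2.99), Sesn3 (17.6 ± 3.86), Foxo3 (11.5 ± 0.42), Irs2 (7.69 ± 0.28) and Foxo1 (6.05 ± 0.70; SD, n = 3). In 2D at 0 h Txnip was again first at 106 ± 14.2 TPM and Ccng2 next at 11.3 ± 0.66 TPM, but Irs2 followed them at 5.51 ± 1.51 TPM. Pik3ip1 (3.66 ± 0.47), Sesn3 (2.37 ± 0.76), Foxo3 (2.28 ± 0.96) and Foxo1 (2.09 ± 0.40 TPM) were lower, and the last 3 overlapped (SD, n = 3). Pik3ip1 overlapped Foxo3 too, with its lowest library at 3.29 TPM and the highest Foxo3 library at 3.39 TPM. The ratio of Foxo3 to Foxo1 in TPM was 0.59 ± 0.10 in 24 h spheroids, 1.92 ± 0.30 in 0 h spheroids, 0.82 ± 0.09 in 24 h attached cells and 1.06 ± 0.24 in 0 h attached cells (SD, n = 3). The highest ratio among the 24 h spheroids was 0.71, and the lowest among the 0 h spheroids was 1.65. These ratios rest on the length that RSEM gave to Foxo3, which was itself 1.72 times as long in 24 h as in 0 h spheroids. With the length of each gene held at its mean over the 12 libraries, a setting added after seeing the data, the ratio was 0.81 ± 0.16 in 24 h spheroids and 1.48 ± 0.26 in 0 h spheroids (SD, n = 3). The spheroid groups did not overlap in that setting either, but the gap was narrower. By the mean ratio, both settings put Foxo3 above Foxo1 in 0 h spheroids and below it in 24 h spheroids. In attached cells the fixed-length ratio was 0.79 ± 0.09 at 24 h and 0.91 ± 0.13 at 0 h (SD, n = 3). At 0 h in attached cells the order by the mean ratio thus turned, from Foxo3 above Foxo1 in TPM to below it at fixed length. In CPM, which takes no account of length, mean Foxo3 was below mean Foxo1 in both spheroid groups. The means were 10.8 against 26.3 CPM in 24 h spheroids and 26.2 against 34.1 CPM in 0 h spheroids. The order in 0 h spheroids thus depended on whether length was taken into account.

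Expected counts and TPM together give the length over which RSEM spread the reads of a gene, since TPM divides the count by a length averaged over the estimated isoforms. The expected count per TPM was taken relative to the median of 9385 well-counted genes in each library. For Foxo3 it was 2.80, 2.87 and 2.61 in 24 h spheroids, against 1.26, 1.62 and 1.92 in 0 h spheroids. Foxo3 had 2.08, 1.59 and 2.21 in 24 h attached cells, against 2.09, 2.26 and 1.24 in 0 h attached cells. The spheroids at 24 h were above all other libraries, and the other groups overlapped. The mean of the 24 h spheroids was 1.72 times that of the 0 h spheroids, and 0.277% of the 9385 genes had a larger shift.

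For Sesn3 the relative length was 1.93, 1.17 and 1.89 in 24 h spheroids, against 1.10, 1.00 and 0.89 in 0 h spheroids. Those groups did not overlap, at a ratio of means of 1.67, and 0.405% of genes had a larger shift. Sesn3 varied widely in 2D, with 2.39, 1.83 and 1.51 at 24 h and 0.92, 2.43 and 1.08 at 0 h. By contrast, group means of Foxo1 stayed between 3.85 and 3.96, those of Irs2 between 2.78 and 2.86 and those of Ccng2 between 1.08 and 1.14. Group means of Txnip ran from 0.84 to 0.98 and those of Pik3ip1 from 0.82 to 0.91. Single libraries ran from 0.67 to 1.06 for Txnip and from 0.71 to 1.03 for Pik3ip1. Foxo3 and Sesn3 rested on 60 to 372 and 53 to 482 expected counts per library, so that their isoforms were estimated from few reads. Such counts were not theirs alone: Pik3ip1 ran from 45 to 974, Irs2 from 108 to 625 and Foxo1 from 146 to 519. The part of low counts in the shifts was not tested, nor was isoform use. The shares of genes with a larger shift were taken over all genes with at least 50 expected counts in every library. They were not taken over genes of like count.

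**Figure D3:**
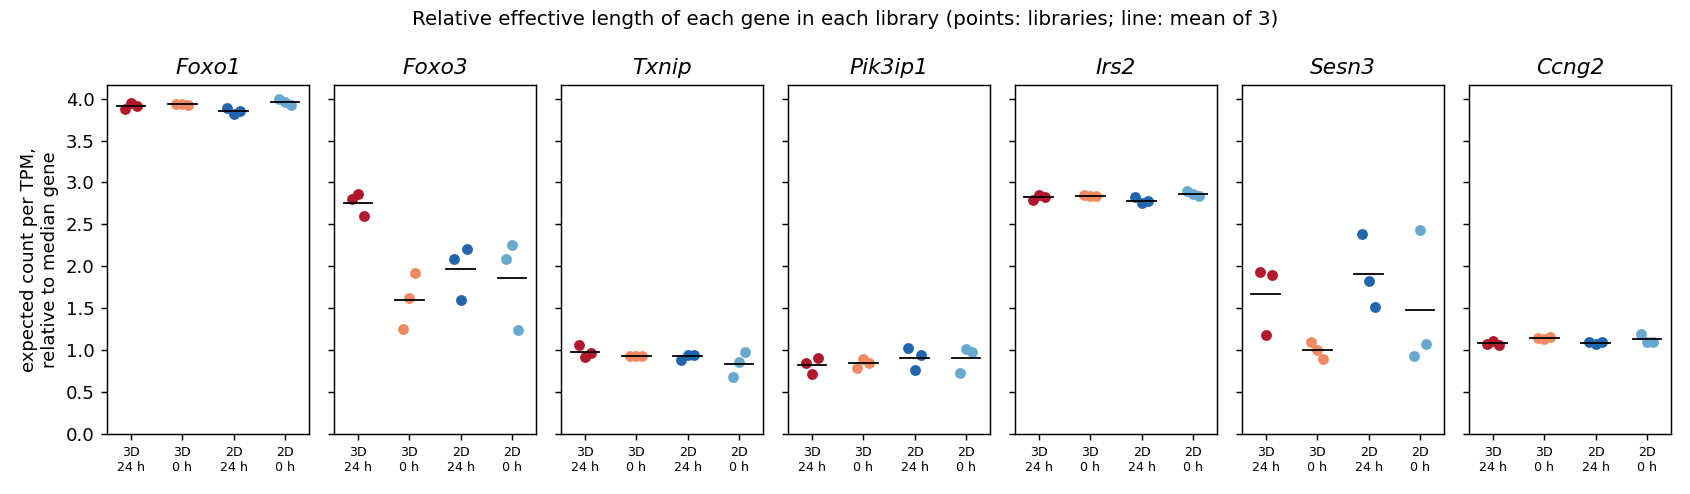
Expected count per TPM relative to the median gene (vertical axis, linear, from 0) for each gene in the 12 libraries, with group means as lines. Foxo3 in 3D at 24 h, with a mean of 2.76, lies above its other groups, Sesn3 scatters within groups, and Foxo1, Irs2 and Ccng2 are level. Txnip and Pik3ip1 scatter over a narrower range than Sesn3.

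Patterns over the 12 libraries were compared by Pearson's r of log2 CPM against 9161 other genes, as a description, since the libraries form 4 groups and r reflects mostly the group means. Pik3ip1 and Sesn3 were close (r = 0.97): Pik3ip1 stood at rank 3 of the genes most like Sesn3, and Sesn3 at rank 4 for Pik3ip1. Both had ENSMUSG00000027589 among their nearest 2 genes (r = 0.99 with Pik3ip1 and 0.98 with Sesn3). Ccng2 was next to Pik3ip1 among the members (r = 0.93), and its own nearest gene was ENSMUSG00000024924 (r = 0.99). Foxo1 and Foxo3 had r = 0.91, with Foxo3 at rank 109 of the genes most like Foxo1. Irs2 was the member least like the targets, with r from 0.26 for Ccng2 to 0.36 for Txnip.

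A value for cell division was set beside these levels, because the members are known from quiescent cells. Summed over 93 genes that mark the phases before and during division (G2/M), the level was 5109 to 5287 CPM of the unscaled library total in 24 h spheroids and 8295 to 8485 in 0 h spheroids. It was 9279 to 9408 in 24 h attached cells and 9587 to 10277 in 0 h attached cells. By this sum the spheroids were below the attached cells at both times, but the median gene of the list did not follow the sum throughout. Over the 92 genes tested, the median log2 fold change of 3D against 2D was -1.84 at 24 h and 0.14 at 0 h. Over 24 h it was -1.43 in 3D and 0.16 in 2D. Ccng2, Txnip, Pik3ip1 and Foxo3 were lower in 24 h than in 0 h spheroids, and so were the G2/M sum and median. At 24 h, where 5 of 7 members were called higher in spheroids and the rest were not called, both the G2/M sum and median were lower there. At 0 h, where 6 members were higher in spheroids, the G2/M sum was lower there and the median slightly higher, so the list gave no single direction at 0 h. The part of cell division in these results was not tested.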

How the data were processed

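RNA was sequenced from 12 libraries in 4 groups. Per the labels, RNA was prepared with a SMART-seq low-input kit and a stranded mRNA library kit. RSEM, STAR, FastQC 0.11.9 and build GRCm39 are listed in the submitters' processing notes, without versions of STAR or RSEM. Deposited by the authors were expected counts, which are read estimates that need not be whole, and log2(TPM + 1) values, which are scaled for length and depth. Column names D0 and D1 were read as 0 h and 24 h. Expected counts were rounded, then tested with edgeR 4.0.16 under R 4.3.3: expression filter with a minimum count of 10, TMM, and a quasi-likelihood fit of all 12 libraries with 1 term per group and 8 residual degrees of freedom. P-values were adjusted by Benjamini-Hochberg over all genes tested, and SE is the log2 fold change divided by the root of the test statistic. The fit was checked on simulated counts. Alternatives used DESeq2 1.42.0, limma 3.58.1 on TPM, other scalings and filters, a replicate block and omission of each library.

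The members and lists were chosen with earlier results of these data known. All 7 members are named in every comparison. Lists of other genes by symbol were not used, since no table here pairs the IDs with symbols. The genes most like a member were sought by Pearson correlation among genes averaging 10 CPM or more, and the 2 IDs printed were chosen after their values were seen. Promoters came from RefSeq (GRCm38.p6), matched by symbol for all 7 members. By the rule on direction of calls, those of Pik3ip1 and Sesn3 were to be shown, and the other 3 targets were added, with the CAAAACA motif and the search of all members for the E-box, after the sequences were seen. G2/M genes are those first in at least 20 marker pairs of scran 1.30.0 and rarely second (no more than 10% of pairs).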

Additional observations from a re-analysis of the deposited data

Results flagged for a closer look

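The difference between 3D and 2D changed between the times, by an edgeR test of the difference of changes (24 h minus 0 h), for 6 of the 7 genes. The log2 difference was -1.19 for Foxo3, -1.68 for Txnip, -2.61 for Pik3ip1, -1.44 for Sesn3 and -3.12 for Ccng2. It was 1.14 for Irs2, the sole member with a larger 3D against 2D change at 24 h than at 0 h among those called. Groups of 3 libraries are too small for a test of single outlying libraries.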

How the results depend on the processing

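A fit of only the 2 groups compared gives no difference of changes. Of 728 values of members under 21 alternatives, 697 kept their direction and their side of the threshold, 23 came newly under it, 6 were lost and 2 turned direction. All 6 losses came with limma on TPM values: Foxo3 in 3D against 2D at 24 h, Sesn3 over time in 2D and Irs2 in the difference of changes, each with a pseudocount of 1 and of 0.1. With limma on TPM and either pseudocount, 1 member (Txnip) was called lower in 3D at 24 h, where the counts called none, and 0 were called higher in the difference of changes, where the counts called 1; the cause was not tested. Both turned values were of changes that were not called: leaving out 1 library at a time, Txnip over time in 2D ran from -0.0708 to 0.36 and Irs2 over time in 3D from -0.22 to 0.0309. Under library totals the median over all genes in the culture comparison was 0.12 at both times, and under upper-quartile scaling it was 0.14 at 0 h; no member changed direction under either. Same-numbered libraries of different groups did not deviate together (r from -0.23 to 0.05 over 18 pairs), so numbers were not taken as pairs. With the replicate block, 5681 genes were called between the cultures at 24 h and 6127 at 0 h, and the block changed no member's call. With lengths held fixed, the Foxo3 to Foxo1 ratio moved by more than its SD in both spheroid groups. Low counts, as those of Foxo3, Sesn3 and Pik3ip1 in some libraries, limit what can be said of isoforms.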
